A study of Mus musculus with 6 samples.

Results

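The resting transcriptome of control J1 cells, a male mouse embryonic stem cell line, was described from the 2 arrays of cells transfected with a non-targeting siRNA (NT). These 2 arrays were taken out of 6 in the series by their titles, and the knockdown arrays were not used. The cells were kept in ESGRO medium, moved to M10 medium for transfection and harvested 96 hours later, and 1 microgram of total RNA was labelled with Cy3. Both arrays share all of these conditions, and no untransfected cells are described here, so every value belongs to J1 cells after transfection. The labels name 1 cell line and do not say whether the replicates were separate cultures or whether feeder cells were present. With 1 group of 2 arrays no test was made; each difference below sets 1 array against the other, and the number of arrays limits the precision.

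Embryonic stem cells grow from the inner cell mass of the blastocyst and can form every tissue of the embryo. A network of transcription factors around Pou5f1, Sox2 and Nanog holds them in this state, with Klf4, Esrrb, Tfcp2l1 and Zfp42 marking its naive form, and signalling from the cytokine LIF through Stat3 sustains it in culture. In such cultures some cells can leave the state spontaneously, most readily towards primitive endoderm, the extraembryonic layer driven by Gata6, Gata4 and Sox17 that goes on to form visceral and parietal endoderm.

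Each array held 43379 spots that were not controls, for 41174 different probes of 60 bases, and 32737 of the probes belonged to 19512 named genes. On replicates 1 and 2, 68.8% and 68.3% of spots were well above background, the scanner software's flag for a spot that clearly exceeds its local background. The signal, a fluorescence intensity in arbitrary units, had a median of 78.1 and 74.6 and a 75th percentile of 818 and 906 over probes. Probes without a target on purpose (negative controls) had a median signal of 3.40 and 3.15. A second guide to low signals came from 907 olfactory receptor genes, which are known as genes of the nasal epithelium; their median signal was 12.4 and 10.3, and 5% of them exceeded 171 and 134. The flag was therefore set on many probes at signals where olfactory receptors also lay. A gene counted as on, or detected, where at least 1 of its probes was flagged, and its level is that of its brightest probe, the one with the highest mean percentile over the arrays. The percentile of a gene is the place of that probe among all probes of the same array. Brightness also depends on how well a probe binds, so percentiles order signals and not numbers of transcripts. By the rule for a gene being on, 260 of the 907 olfactory receptor genes (28.7%) were on in both arrays. Another 147 were on in replicate 1 only and 127 in replicate 2 only.

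The 6 factors that define the stem cell were all on, and all lay above percentile 93 on both arrays. The probes that gave their values, shown so that what was read can be looked up, begin at the 5′ end with the 30 bases below (build mm7, 60 bases each). The strand is taken from the order of the ends in the files, which matched the strand of the gene in RefSeq for 99.1% of 18375 probes.
Pou5f1, chr17:33612047-33612107, plus strand: aagtattgagtattcccaacgagaagagta
Sox2, chr3:34459231-34459290, plus strand: tggcaatcaaatgtccattgtttataagct
Nanog, chr6:122750894-122750953, plus strand: cttctgagctctatttacaacttggtgtgt
Zfp42, chr8:42080746-42080805, minus strand: tgtgctattgaaggggatggggacttttgc
Klf4, chr4:55541780-55541839, minus strand: aagcgctacaatcatggtcaagttcccagc
Esrrb, chr12:84523822-84523881, plus strand: ttctgataatgacgttgtggctggaatgac

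Pou5f1, the POU factor without which the inner cell mass is lost, had signals of 19207 and 16408 on replicates 1 and 2. Its partner Sox2 had signals of 13581 and 17119. Nanog, the homeodomain factor that can hold self-renewal without LIF, gave 12234 and 11380. Pou5f1, Sox2 and Nanog lay at percentiles from 93.8 to 96.4 on both arrays. Zfp42 (Rex1), a zinc finger gene switched off early on exit from the naive state, gave 161043 and 167055 and lay above percentile 99.5 on both arrays. Klf4, a LIF-responsive factor, gave 90075 and 113842, also above percentile 99. The orphan nuclear receptor Esrrb gave 21189 and 23263, at percentiles 96.6 and 96.5. After scaling by the 75th percentile of each array, the differences of the 6 genes between the arrays ran from -0.19 to 0.38 on the log2 scale. The SD over all 14545 genes compared was 0.61, but dim genes widened it. Over the 2909 genes with the highest signal, to which all 6 belong, the SD was 0.24. Pou5f1 (0.38) and Nanog (0.25) lay beyond that value. The second probe of Zfp42 was also bright, at 87211 and 102401, whereas the second probe of Esrrb gave 160 and 147 on the same arrays. The level read for Esrrb therefore depended on the probe, and on both arrays its probes differed in the same way.

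The wider pluripotency and naive state list was on throughout. Of its 42 measured members 42 were well above background on both arrays, against 75% of the 19508 named genes measured on both. The median percentile of the members was 94.8 and 94.4. Between the arrays 0 of 42 differed by more than 2-fold, where 5.37% of all genes compared were over 2-fold higher on replicate 1 and 2.01% on replicate 2. Bright genes differed less in general: of the 2909 genes compared with the highest signal, 0.206% were over 2-fold apart. The 0 of 42 therefore cannot be read apart from the brightness of the list. Dppa5a, an RNA-binding protein of pluripotent cells, was brightest in the list at 483495 and 591638. Tdh, the threonine dehydrogenase on which mouse embryonic stem cells depend, gave 239675 and 254986. Klf2, a Krüppel-like relative of Klf4, gave 115348 and 113357, and Trim28, the corepressor that silences retroviruses, gave 78897 and 96953. Among the signalling genes of the list, Nodal gave 11879 and 16165 and its feedback inhibitor Lefty1 gave 20037 and 22647. The only member below percentile 70 was the adhesion gene Pecam1, at 159 and 202. Sall1 (663 and 905) and the LIF receptor Lifr (712 and 772) lay between percentiles 72 and 75. Prdm14, Fgf4 and L1td1 were not matched to a probe.

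**Figure D1:**
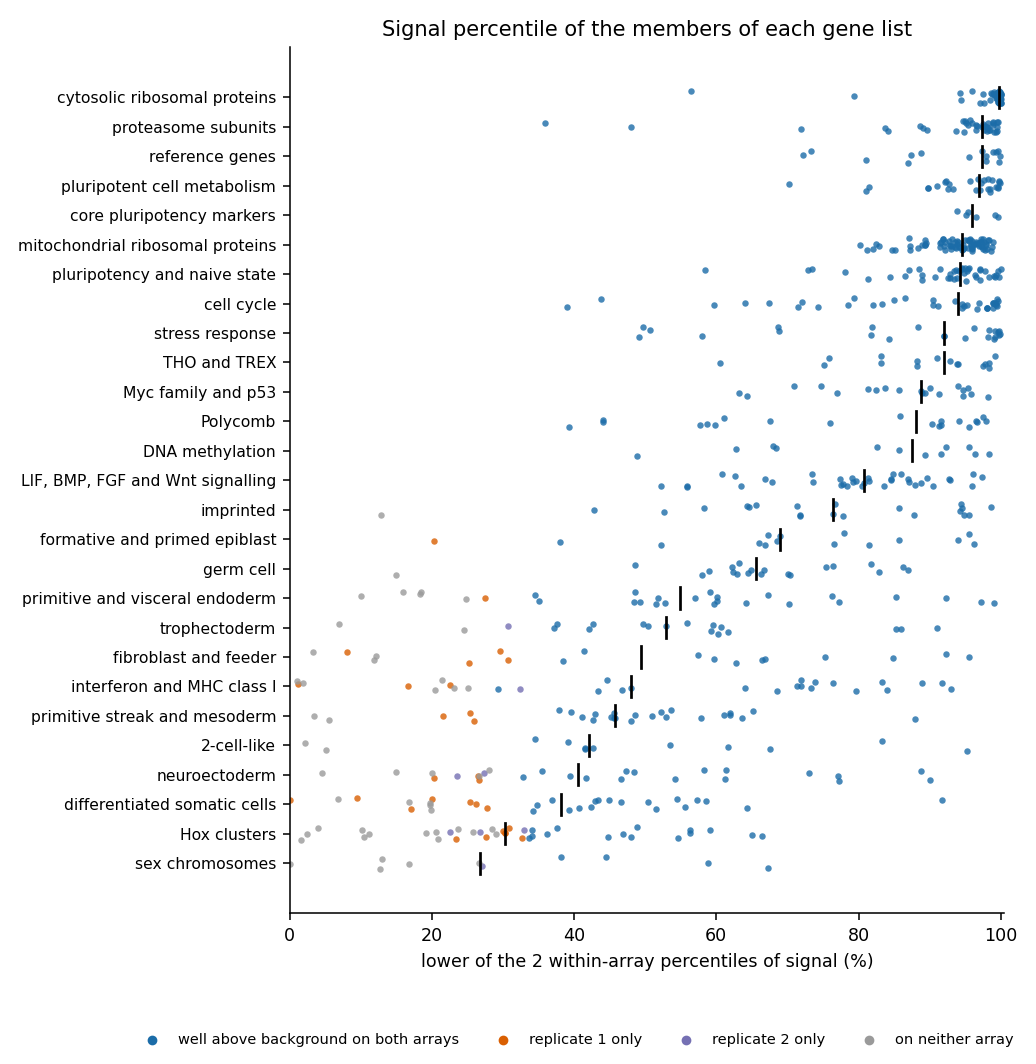
Each point is 1 measured member of a gene list, placed by the lower of its percentiles on the 2 control arrays (x axis, percent; y axis, the lists in order of their median, drawn as a black bar), and coloured by whether it was well above background on both arrays, 1 array or neither. The 6 core markers all lie above 90, whereas the neuroectoderm, somatic, Hox and sex chromosome lists have medians below 50 and hold many grey points.

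Signalling genes that act on this network were on as well. All 37 measured members of the LIF, BMP, FGF and Wnt list were well above background on both arrays. The brightest was Socs3, the feedback inhibitor that Stat3 induces, at 38455 and 31089. Dusp6, a phosphatase induced by ERK, gave 24429 and 20295, and Ctnnb1 (beta-catenin) gave 18563 and 19853. The BMP-induced inhibitors Id1 (10217 and 9636) and Id3 (2407 and 2853) were on, as was their inducer Bmp4 (3979 and 4195). Fgfr4, an FGF receptor, was the only member over 2-fold apart, at 731 and 377 (log2 difference 1.10, replicate 1 minus 2). Another receptor, Fgfr2, gave 128 and 127, below the level that 5% of olfactory receptors exceeded.

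Genes that rise as the naive state is left spanned bright and dim signals. Of 15 formative and primed epiblast genes 14 were detected on both arrays (93.3%, where 75% of all genes were). The median percentile of the list was 72.0 and 68.9. Pou3f1 (Oct6), the POU factor of the primed epiblast, was bright at 18971 and 11956, as were Car2 (18402 and 22900) and the methyltransferase Dnmt3b (16785 and 17081). Lef1, a Wnt effector, gave 2912 and 1865, and Dnmt3a gave 2795 and 3412. In contrast Fgf5, the usual mark of primed epiblast, gave only 129 and 90.4, and Otx2 gave 332 and 344. Zic2 was over 2-fold apart (89.4 and 26.9, log2 difference 1.88), and Sox3 was detected on replicate 1 only (23.6 and 4.37). Of the 14 members compared 12 lay above 0, with a median of 0.45, where the median of all genes compared was 0.01.

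Genes of the rare cells that resemble the 2-cell embryo were read higher on replicate 1 in several cases. Of 12 measured members 10 were detected on both arrays (83.3%, where 75% of all genes were). On both arrays 4 lay above the 95th percentile of olfactory receptors. A further 9 of the list's genes, Dux and 5 Zscan4 copies among them, had no matched probe. Zscan4c, the zinc finger gene that defines these cells, gave 3919 and 2312. Eif1a gave 14106 and 19080 through its brightest probe, placed on chromosome 18. Another probe there gave 4397 and 4157 (log2 difference 0.23). The Eif1a probe placed on chromosome 12 gave 2804 and 1627 (0.93), so the direction for Eif1a depended on the probe. The members over 2-fold higher on replicate 1 numbered 4: Tcstv3 (at 296 on replicate 1), Tcstv1 (395 and 217), Usp17lb (72.8 and 39.3) and Arg2 (54.4 and 29.3). That is 4 of 10 compared, where 5.37% of all genes were. These 4 genes were dim, and dim genes differed more often. Of the 2909 genes compared with the lowest signal 478 were over 2-fold higher on replicate 1. Of the 2909 next in signal 243 were. The log2 differences of Tcstv1, Usp17lb and Arg2 were 1.01 to 1.04 and fall within 2-fold when the arrays are scaled by their medians; that of Tcstv3, 1.70, does not. By the same rule 0 members were over 2-fold higher on replicate 2. Usp17la gave 641 and 406, and Pramel6 and Usp17lc were detected on neither array. Several of these genes belong to families of near-identical copies, so a probe can read more than 1 copy.

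Germ cell genes were nearly all on. Of 20 measured members 19 were detected on both arrays (95%, where 75% of all genes were). The median percentile of the list was 66.5 and 66.0. Over 2-fold apart were 0 of the 19 compared, where 5.37% of all genes were higher on replicate 1 and 2.01% on replicate 2. The RNA-binding factor Dnd1 gave 3631 and 3326, the retinoic acid target Stra8 gave 3261 and 6794, and Mael, a piRNA pathway gene, gave 1973 and 2489. Ddx4 (Vasa), the helicase of the germ plasm, gave 1722 and 2606, whereas Dazl gave 251 and 277. Nanos2, a marker of male germ cells, was detected on neither array.

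Among the gene lists, the largest median difference between the 2 control arrays lay in primitive and visceral endoderm genes. The lists were chosen with earlier results of these data known, so this ranking and the counts below are a description. Of 28 measured members 22 were detected on both arrays (78.6%, where 75% of all genes were). Of these 22, 15 were over 2-fold higher on replicate 1 and 0 on replicate 2, where all genes gave 5.37% and 2.01%. Dim genes differed more often in general. Of the 2909 genes compared with the lowest signal 478 were over 2-fold higher on replicate 1. The next 2909 held 243 such genes, and the middle 2909 held 37. The median log2 difference of the 22 genes was 2.18, and 21 of them lay above 0. Over all 28 genes the geometric mean signal was 402 on replicate 1 and 146 on replicate 2, and the median percentile was 73.6 and 54.9. The summed signal was 149773 and 141547, of which Apoe alone gave 89895 and 89196.

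The transcription factors that specify the layer were lower on replicate 2. Gata6, which opposes Nanog in the inner cell mass, gave 1401 on replicate 1 and 178 on replicate 2 (log2 difference 3.13). Its partner Gata4 gave 88.8 and 20.3, a difference of 2.28. Sox17, the SRY-box factor of definitive and extraembryonic endoderm, gave 723 and 66.0 (3.60), and its relative Sox7 gave 520 and 87.6 (2.72). For each of these 4 factors replicate 1 was over 4-fold higher. Foxa2 and Cited1, which follow in visceral endoderm, were higher on replicate 1 by 1.88 and 2.24. Hnf4a gave 116 and 70.5, a difference of 0.87 that stayed within 2-fold, and Hhex (1224 and 1149) and Foxq1 (698 and 534) were alike on both arrays to within 0.53.

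The surface and matrix genes of the layer were mostly higher on replicate 1 too. Cubn, the cubilin receptor with which visceral endoderm takes up nutrients, gave 4137 and 283 (4.02), the largest difference in the list. Amn, the protein that carries cubilin to the membrane, gave 2377 and 394 (2.74), and Dab2, their endocytic adaptor, gave 1410 and 139 (3.49). The basement membrane collagens Col4a1 (1446 and 167) and Col4a2 (976 and 94.7) differed by 3.26 and 3.51. Pdgfra, a receptor of primitive endoderm cells, gave 149 and 19.4 (3.09), the laminin chain Lama1 gave 2488 and 1027 (1.42), and Plat gave 142 and 64.8 (1.28). Each of these was over 2-fold higher on replicate 1. The other laminin chains and Sparc stayed within 2-fold: Lamb1 gave 3516 and 2950 (0.40) and Lamc1 gave 26071 and 36049 (-0.32), and Sparc gave 10583 and 8560 (0.45).

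Some members of the list were dim or off, whereas Apoe was its brightest at 89895 and 89196. Apoa1 was detected on replicate 1 only (39.0 and 9.97, at least 3.59-fold higher). Afp and Ttr, secreted proteins of mature visceral endoderm, and Foxa1, Cer1 and Thbd were detected on neither array, at signals from 3.28 to 9.98. Of the 15 genes over 2-fold higher on replicate 1, 6 had another probe detected on both arrays, and for 4 of them, with Sox17, Col4a1 and Col4a2 among these, every such probe was also over 2-fold higher on replicate 1. The exceptions were Gata6, with another probe at 2.45 and a dim one at 0.60, and Lama1, with its second probe at 0.17. Dab2 had 1 probe detected on both arrays, and its other probes gave 80.3 and 6.34, and 4.33 and 15.8, in opposite directions. In total RNA of a culture, fewer cells of a type and less RNA in each of them cannot be told apart, and the share of endoderm-like cells in each culture was not tested.

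The probes of Sox17, Cubn and Alb, an albumin gene described further on, are shown because the disagreement was read through them (build mm7, first 30 of 60 bases). G and C make up 35% of the whole probe for Sox17 and for Cubn and 43.3% for Alb, where the median of all named genes was 43.3%.
Sox17, chr1:4487014-4487073, minus strand: ctcactgacttattccatttcttgaaagtg
Cubn, chr2:13215519-13215578, minus strand: tctaaaagttggtgatacaaatagctgtat
Alb, chr5:90443687-90443746, plus strand: gctctgacagttgatgaaacatatgtcccc

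**Figure D2:**
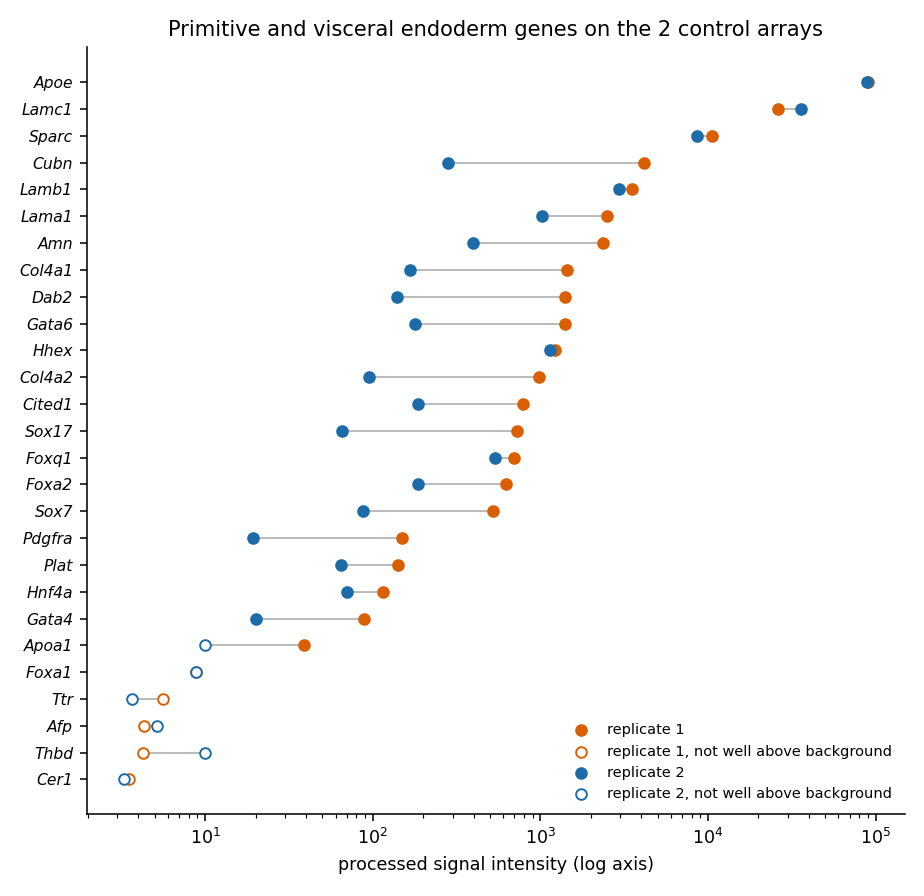
Signal (x axis, log scale, arbitrary units) of 27 of the primitive and visceral endoderm genes (y axis, in order of replicate 1) on replicate 1 (orange) and replicate 2 (blue) of the control arrays; open circles are not well above background. For 14 of the genes detected on both arrays, such as Gata4, Gata6, Sox17 and Cubn, and for Apoa1 the orange point lies over 2-fold to the right of the blue one, whereas Apoe, Sparc, Lamb1, Hhex and Foxq1 nearly coincide and Lamc1 lies the other way.

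Trophectoderm genes were mostly dim. Of 19 measured members 16 were detected on both arrays (84.2%, where 75% of all genes were). The median percentile of the list was 56.2 and 53.1. The epithelial keratins Krt18 (6402 and 6793) and Krt8 (3467 and 3247) and the factor Tfap2c (2624 and 3333), which stem cells share with trophoblast, stood out. The defining regulator Cdx2 gave 28.6 and 47.2, Eomes gave 104 and 96.3, and Gata3 gave 27.5 and 26.2. All of these signals lay below the level that 5% of olfactory receptors exceeded. Prl3d1, a hormone of trophoblast giant cells, was the only member over 2-fold apart (205 and 37.6, difference 2.60). Hand1 was detected on replicate 2 only (15.5 and 22.4), and Elf5 and Tpbpa on neither array.

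Mesoderm and primitive streak genes were mostly dim, and 6 of 27 lay above the 95th percentile of olfactory receptors on both arrays. Of the 27 measured members 22 were detected on both arrays (81.5%, where 75% of all genes were), and the signalling gene Bmp4 (3979 and 4195) was the brightest of them by far. T (Brachyury), the factor of the primitive streak, gave 38.2 and 65.4, Eomes 104 and 96.3, Gsc 44.8 and 53.3, and Kdr 55.8 and 59.8. Tbx6 (303 and 326), Fgf8 (262 and 305), Tal1 (222 and 260) and Snai1 (221 and 227) followed Bmp4 in the order of percentiles. Lhx1 was over 2-fold higher on replicate 1 (61.7 and 30.3) and Nkx2-5 on replicate 2 (56.0 and 125). Hand2 (123 and 5.19), Msgn1 (77.9 and 8.02) and Tbx5 (18.0 and 8.54) were detected on replicate 1 only, and Mixl1 and Foxf1 on neither array.

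Neuroectoderm genes were partly on. Of 26 measured members 16 were detected on both arrays, where 75% of all genes were. The brightest were Gbx2 (5162 and 6836), a LIF-responsive gene in stem cells, and Tubb3 (4209 and 5011). Ncam1 (1078 and 1131), En2 (1040 and 1148) and Nes (666 and 824) followed. The early neural factors were dim: Sox1 gave 87.6 and 21.1, over 2-fold higher on replicate 1, and Pax6 gave 209 and 350. Sox10 (217 and 65.0) was over 2-fold higher on replicate 1, and Neurog1 (40.4 and 125) on replicate 2. Pax7, Otx1 and Nkx2-2 were detected on replicate 1 only, and Neurog2 and Fabp7 on replicate 2 only. Pax3, Olig2, Six3, Zic1 and Irx3 were detected on neither array.

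Fibroblast genes were checked because feeder fibroblasts could have been present. Of 18 measured members 11 were detected on both arrays (61.1%, where 75% of all genes were). Vim (14809 and 16837), Acta2 (10165 and 8640), Tagln (3278 and 2809) and Thy1 (1270 and 925) were bright, and stem cells themselves also make vimentin. Col5a1 (389 and 375) and Pdgfrb (340 and 378) were dimmer, as were Col1a1 (146 and 151) and Col1a2 (178 and 267). By the 95th percentile of olfactory receptors 8 of the 18 members were above it on both arrays. Col3a1 (48.7 and 3.13), Postn, Lum and Twist2 were detected on replicate 1 only, and Col6a1, Fap and Mgp on neither array. Of the 11 members compared 0 were over 2-fold apart, where 7.38% of all genes compared were, and their median log2 difference was 0.09. The members detected on replicate 1 only were not among those compared.

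Markers of differentiated tissues were off or dim, with a few exceptions. Of 30 measured members 18 were detected on both arrays (60%, where 75% of all genes were). On both arrays 3 of the 30 lay above the 95th percentile of olfactory receptors. Syn1, a neuronal synapsin, was the brightest at 14591 and 7714 (difference 1.07). The leukocyte gene Ptprc (CD45), Lyz2, Ins1, Sftpc and Pth were detected on neither array. Cela1 and Krt14 were also over 2-fold higher on replicate 1, and Krt5, Cd3e, Adipoq and Myod1 on replicate 2, at signals from 21.4 to 305. Cyp2e1, Gfap, Gh and Prl were detected on replicate 1 only, at 21.9 to 125. Alb (albumin) was the member that stood apart. It gave 1365 on replicate 1 and 8.02 on replicate 2, where it was not well above background, so it was at least 126-fold higher on replicate 1.

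Genes on the sex chromosomes bore on the sex of the line. Eif2s3y, a translation factor gene of the Y chromosome, was on at 403 and 391, and Ddx3y gave 29.6 and 41.9. Zfy1 was detected on both arrays but over 2-fold higher on replicate 2 (50.8 and 131). Kdm5d, Uty, Sry, Zfy2 and Usp9y were detected on neither array. Xist, the RNA that coats the inactive X chromosome of female cells, has 4 probes. The one with the highest mean percentile gave 11.2 and 10.4 and was detected on neither array, although another was flagged on replicate 2 (3.11 and 19.8). Tsix, which runs antisense to Xist, gave 164 and 311.

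The Hox clusters, which pattern the body axis after gastrulation, were mostly dim. Of 38 measured genes 15 were detected on both arrays (39.5%, where 75% of all genes were). Another 7 were detected on replicate 1 only, 3 on replicate 2 only and 13 on neither. The median percentile was 34.7 and 31.9, and the brightest included Hoxa7 (339 and 393), Hoxb6 (375 and 306), Hoxa3 (133 and 146) and Hoxc4 (382 and 130). Hoxc4 and Hoxb4 were over 2-fold higher on replicate 1, and Hoxa6 and Hoxc5 on replicate 2. The count on both arrays depended on the flag: it was 31 with the looser flag for a positive and significant signal, and 3 genes lay above the 95th percentile of olfactory receptors on both arrays. The Polycomb genes, which are known to hold these clusters silent, were all on. All 20 were detected on both arrays, led by Mtf2 (35586 and 50943), Phc1 (29186 and 36473), Eed (24374 and 23491), Jarid2 (21329 and 28014) and Rybp (15263 and 20487). Ezh2, their methyltransferase, gave 8987 and 7587, and its relative Ezh1 gave 173 and 148. Among the chromobox subunits Cbx7 gave 10959 and 21357, whereas Cbx8 gave 32.9 and 37.6.

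DNA methylation and imprinted genes were on nearly throughout. All 12 DNA methylation genes were detected on both arrays, the brightest being Dnmt3l (62312 and 51471), the cofactor of de novo methylation. Uhrf1 (19146 and 21656), Dnmt3b, Tdg (10991 and 8499) and Dnmt1 (6595 and 8143) followed, and Tet1 gave 1905 and 2470 whereas Tet3 gave 71.9 and 87.9. Of 21 imprinted genes 20 were detected on both arrays and Zim1 on neither. Phlda2 (56469 and 80016), Cdkn1c (22208 and 16937), Grb10, Impact and Mest were the brightest of them, whereas Peg3 (172 and 156), H19 (137 and 94.1) and Peg10 (44.0 and 44.4) were dim. Meg3, a maternally expressed RNA that is silenced in some stem cell lines, gave 11122 and 16517.

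**Figure D3:**
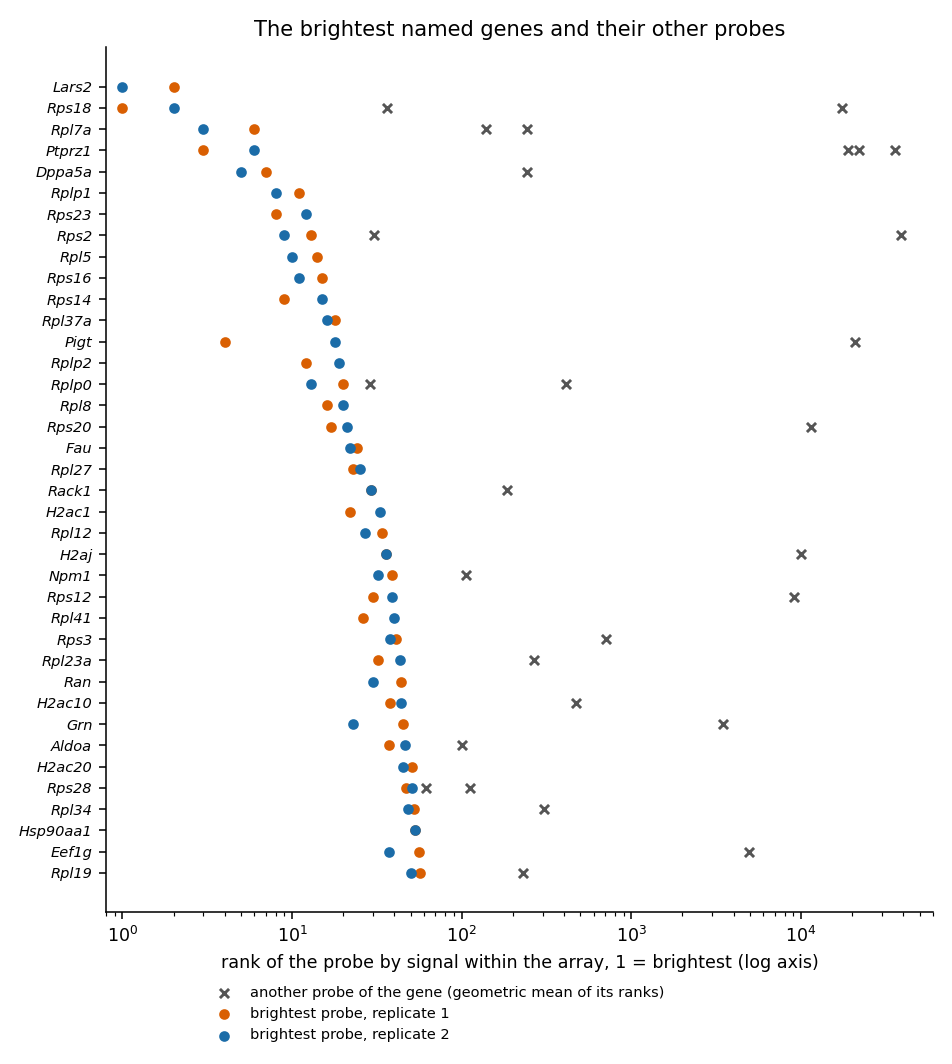
Rank by signal within the array (x axis, log scale, 1 is the brightest of all probes) of 38 of the 40 named genes with the brightest probes (y axis), on replicate 1 (orange) and replicate 2 (blue); crosses are the other probes of the same genes. The orange and blue points lie within the first 57 ranks for every gene. Genes were chosen by the lower of their percentiles, so closeness of these points is largely built in. Crosses of Ptprz1, Pigt, Rps18 and Rps2 lie far to the right, those of Ptprz1 with ranks on single arrays from 18167 to 41035.

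Genes of protein synthesis made up most of the brightest signals. Of the 40 brightest named genes 24 were cytosolic ribosomal proteins, led by Rps18 (573012 and 628684) and Rpl7a (503204 and 603988). The other large group was histone H2A, with H2ac1, H2aj, H2ac10 and H2ac20. The rest included Dppa5a, Fau (which encodes a ribosomal protein fused to a ubiquitin-like one), Rack1 (a protein of the small ribosomal subunit), the nucleolar chaperone Npm1, the nuclear transport GTPase Ran, the elongation factor subunit Eef1g, the glycolytic enzyme Aldoa and the chaperone Hsp90aa1. The ribosomal proteins in this set included, in order, Rps18, Rpl7a, Rplp1, Rps23, Rps2, Rpl5, Rps16, Rps14, Rpl37a, Rplp2, Rplp0, Rpl8, Rps20, Rpl27, Rpl12, Rps12, Rpl41, Rps3, Rpl23a, Rps28, Rpl34 and Rpl19. All 40 genes agreed between the arrays to within 0.36 on the log2 scale. They were picked by the lower of their within-array percentiles, so a gene bright on a single array could not enter. That agreement is therefore largely built in. Of the 100 brightest probes on replicate 1, 91 were among the 100 brightest on replicate 2, and 19 had no current gene name. The 100 brightest probes held 20.4% and 20.8% of the summed signal of all probes.

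All 80 ribosomal protein genes matched by name were detected on both arrays, at a median percentile of 99.7 on both. The exception in brightness was Rpl3l, the muscle form of Rpl3, at 182 and 132, and Rpl21 gave 2197 and 1449. All 77 mitochondrial ribosomal proteins were on as well, between percentiles 80.2 and 99.1, and their brightest members were Mrpl28 (69114 and 79616) and Mrpl20 (60128 and 84999). Of 39 proteasome genes 39 were on, led by Psmd3 (141875 and 165999) and Psma2 (131291 and 168158). The subunits of the immune and thymic proteasome were the dim ones: Psmb11 gave 29.2 and 21.9 and Psmb9 gave 781 and 648. Psmb8 gave 197 and 62.2, over 2-fold higher on replicate 1 (1.81).

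Ptprz1 and Pigt owed their place to 1 bright probe that stood apart from the other probes of the gene, and Lars2 had a single probe. The probe named for Lars2, a mitochondrial leucyl-tRNA synthetase, gave 536990 and 682511, at ranks 2 and 1 of all probes. Its spot on replicate 2 was the only saturated one, so its rank there is not exact. Ptprz1, a receptor phosphatase of the nervous system, gave 509238 and 571458 through 1 probe, while its other 3 probes gave 2.69 to 128. Pigt, which attaches anchors to membrane proteins, gave 505383 and 436495 through 1 probe and 56.1 and 92.8 through the other, and the files place both on another chromosome than the gene has in RefSeq. Their brightest and, where shown, other probes begin as follows (build mm7).
Lars2, chr9:123178230-123178289, plus strand: acgtcgctttttgatccttcgatgtcggct
Ptprz1, brightest probe, chr6:22942347-22942406, plus strand: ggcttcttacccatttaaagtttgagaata
Ptprz1, another probe, chr6:22945214-22945273, plus strand: ccctaacctgaacctcggcatttatgttac
Pigt, brightest probe, chr17:38065479-38065538, plus strand: ccccctcgatgctcttagctgagtgtcccg
Pigt, other probe, chr17:38064637-38064696, plus strand: ctgatggctccagctactttgtccgactct

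Whether these bright probes match another abundant RNA was not tested. Their signals are therefore those of the probes and cannot be taken as levels of Lars2, Ptprz1 or Pigt transcripts. Other genes of the brightest 40 also rested on 1 bright probe. Rps20 gave 396908 and 417717 on 1 probe and 604 and 709 on the other. Rps12 gave 329209 and 356782 against 979 and 1406, and Eef1g gave 261528 and 361290 against 3930 and 4204. Grn, progranulin, showed a smaller gap, with 293008 and 412623 on 1 probe and 7133 and 7019 on the other. Gaps between probes of a gene were common. Among 5917 genes with at least 2 probes detected on both arrays, the brightest and the dimmest probe of a gene lay a median of 2.58 apart on the log2 scale. H2aj showed such a gap too, with 315355 and 361393 on 1 probe and 808 and 1040 on the other. Histone probes also shared a stretch between genes, except that of H2ac20, whose longest run in common with the others was 7 bases. The probes of H2ac1, H2ac10 and H2aj have 29 bases in common, capitals below, so that they may read the transcripts of several H2A genes and their levels are uncertain as levels of single genes.
H2ac1, chr13:23300592-23300651, bases 5 to 34 of the probe: cATCCAGGCCGTGCTGCTGCCCAAGAAGAC
H2ac10, chr13:22900228-22900287, bases 5 to 34 of the probe: cATCCAGGCCGTGCTGCTGCCCAAGAAGAC
H2aj, chr6:136833216-136833275, bases 13 to 42 of the probe: tATCCAGGCCGTGCTGCTGCCCAAGAAGAC

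Proliferation and metabolism genes were among the brighter groups. All 36 cell cycle genes were detected on both arrays, at a median percentile of 94.1 and 94.4. Ccne1, the cyclin that drives entry into S phase, gave 125702 and 155793, the replicative helicase subunit Mcm6 gave 140530 and 166450, and the mitotic activator Cdc20 gave 121352 and 158888. Of the inhibitors in this list, Cdkn1a (p21) gave 649 and 656, Cdkn1b (p27) gave 422 and 281, and Cdkn2a gave 48.2 and 80.1; Cdkn1c, in the imprinted list, was brighter. Of the 28 metabolism genes 28 were on, the brightest being Aldoa (314006 and 324395), Tdh, Ldha (211876 and 243059), the polyamine enzyme Odc1 (187523 and 182012) and Gapdh (172754 and 187782). The probe behind Gapdh is placed by the files on another chromosome than the gene has in RefSeq, and the same holds for the probes of Actb, Hspa8, Isg15 and Pigt.

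The Myc and p53 list was on in full, 20 of 20. Sesn2, a p53 target, gave 44843 and 47757, the apoptosis genes Bbc3 (20887 and 18920) and Bax (14238 and 14196) followed, and Mycn gave 14360 and 20012. Myc itself gave 5134 and 9037, a difference of -0.67 that stayed within 2-fold. All 23 measured stress genes were on, with Hsp90aa1 (271810 and 313215), Hspd1 (226017 and 296486), Hsp90ab1 (214113 and 240442) and Hspa8 at the top and the immediate early gene Fos dim at 73.1 and 72.2. Asns, a target of the stress factor Atf4, gave 119587 and 103706. Ddit3 (Chop), a factor of prolonged stress, was the only member over 2-fold apart, at 1036 and 454 (1.34).

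Innate immune genes were partly on. Of 29 measured members 19 were detected on both arrays (65.5%, where 75% of all genes were). The regulators Irf3 (8682 and 9690) and Irf1 (6217 and 4902), the class I heavy chains H2-K1 (6860 and 7698) and H2-D1 (3137 and 2477) and the loading factor Tapbp (2708 and 2292) were the brightest. The interferon-induced genes and sensors were dim or off: Ifnb1, Ifit1, Ifit3, Ifih1, Tlr3 and Tlr7 were detected on neither array, Isg15 gave 64.1 and 41.8, Irf7, Mx1 and Mx2 were detected on replicate 1 only and Cxcl10 on replicate 2 only.

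The siRNA targets of the other groups were on at the control level. Thoc2 gave 2048 and 2445 and Thoc5 gave 2023 and 2691, with differences of -0.11 and -0.26. Each of these levels rested on 1 probe. The other Thoc2 probes gave 213 and 201, 108 and 102, and 10.9 and 7.39, the last detected on neither array. The other Thoc5 probe gave 3.72 and 3.82 and was detected on neither array. All 16 THO and TREX genes were detected on both arrays. Sarnp (81836 and 109930), Alyref (47079 and 52661), Ddx39a (44584 and 53154), Chtop (32671 and 44662) and Ddx39b (29093 and 35730), which join mRNA on the way to export, were the brightest, and Nxf1, the export receptor, gave 935 and 920. None of the 16 was over 2-fold apart, where 7.38% of all genes compared were. All 15 reference genes were on too, from Tbp (611 and 860) to Rplp0 (383464 and 502503), and 0 were over 2-fold apart. Of the 2909 genes compared with the highest signal 0.206% were over 2-fold apart. The counts of 0 therefore cannot be read apart from the brightness of these lists.

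**Figure D4:**
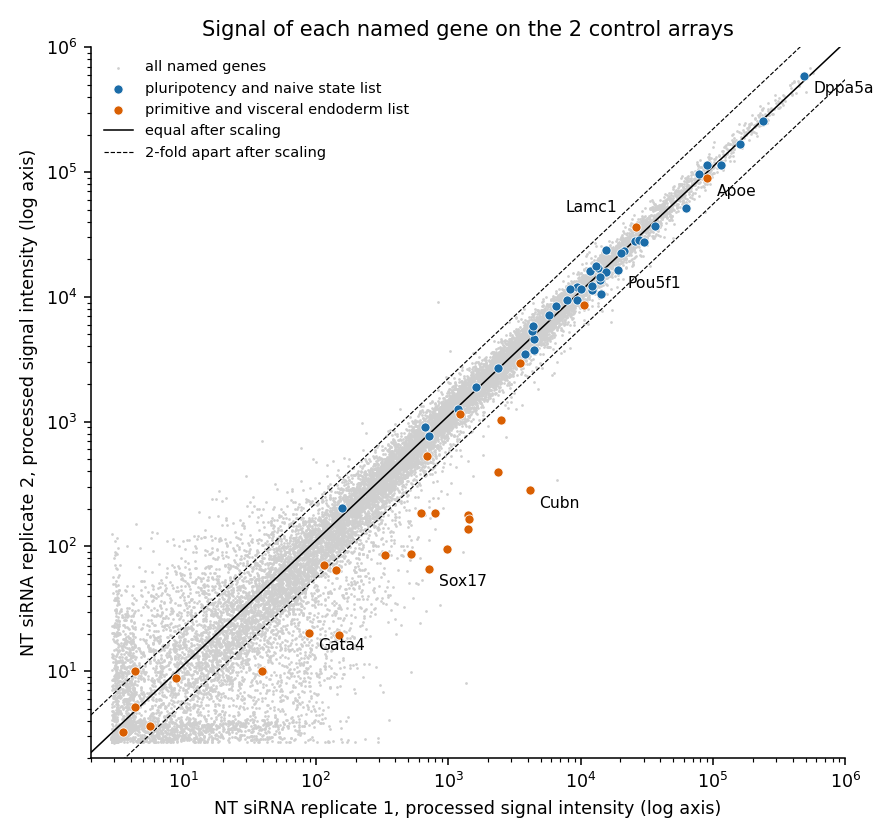
Signal of each named gene on replicate 1 (x axis) and replicate 2 (y axis) of the control arrays, both on log scales in arbitrary units, with the pluripotency list in blue, the endoderm list in orange, equal scaled signal as a solid line and 2-fold limits dashed. The 42 blue points all lie between the dashed lines, whereas 15 orange points that were detected on both arrays lie to the right of them.

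Across the genome the 2 control arrays ordered the genes alike, with a Spearman correlation of 0.972 across 19508 genes, which are not independent replicates. On both arrays 14624 genes (75%) were on, 1780 (9.12%) were detected on 1 array and 3104 (15.9%) on neither. That 75% is the share to set beside the detection count of each list above, together with the 28.7% of the olfactory receptor genes. Of the genes on 1 array, 1034 (5.3%) were on replicate 1 and 746 (3.82%) on replicate 2. Genes on replicate 1 only had a median signal of 32.4 there, and genes on replicate 2 only 26.5 there. By chromosome of the probe, the share on both arrays ran over the autosomes and the X chromosome from 65.7% on X to 81.5% on chromosome 8, and 1 gene of 6 was on both on Y, and 8 of 11 on the unplaced part of Y (Y_random), which holds the probes of Eif2s3y and Ddx3y.

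Of the 14545 genes whose brightest probe was detected on both arrays, 7.38% were over 2-fold apart, 781 of them higher on replicate 1 and 293 on replicate 2. This split of 72.7% in favour of replicate 1 rested on the scaling: with each array scaled by its median it was 55.2% (572 against 465 genes), and the median of all genes then moved to -0.20. The disagreement was greater among dim probes. Over the 2909 genes with the lowest signal the SD of the difference was 0.97 and 24.0% were over 2-fold apart, and over the 2909 genes with the highest signal the SD was 0.24 and 0.206% were. Olfactory receptors were 1.77% of the genes compared but 9.60% and 10.6% of those higher on replicates 1 and 2. Among the 173 probes printed 10 times on the array and on in both, repeated spots had a median SD of 0.10 and 0.09 on the log2 scale, with a 95th percentile of 1.23 and 0.96. The same probes differed between arrays by a median of 0.24 in absolute value; spot SDs hold technical spread only. The arrays lay on different slides, so slide and replicate cannot be told apart. Over 25 blocks of the array surface the median difference ran from -0.10 to 0.11.

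Most single genes with the largest differences had signals below 1000 on both arrays. Higher on replicate 1, the first were the neural factor Sox14 (864 and 33.9, difference 4.82, but 0.65 through its other probe, at 30.9 and 21.8) and Csf1r, the macrophage growth factor receptor (615 and 24.2, difference 4.82). Slc35g3 (682 on replicate 1), Ces1c (401 and 19.8) and Tcl1b2 (442 and 23.4) differed by 4.39 to 4.65. Srgn, a proteoglycan of secretory granules, was the brightest of the set, at 6689 and 340 (4.44). Ambp gave 400 and 25.9, Serpina1d 1285 and 89.8, and Fabp1 594 and 50.1, and Cubn was in the set too. The others were Serpinb3c, 4930591A17Rik, Vmn1r47, Nkx1-2, Edn3, Defb3, Gucy1b2, Dlx6os2 and the olfactory receptors Olfr441 and Olfr549, with differences of 3.65 to 3.97.

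Genes detected on replicate 1 only were headed by Alb. Mup1, a major urinary protein of liver, gave 521 and 9.75 (at least 47.9-fold), and Fgb, a fibrinogen chain, gave 323 and 6.83 (at least 29.7-fold). The remainder of the 15 brightest were Olfr1305, Cd1d2, Pilrb1, Olfr353, Lmo3, 5730522E02Rik, Ly9, Tfec, Ugt3a2, Hspa1l, Gpr161 and Glra3, at signals from 198 to 356 on replicate 1. Genes of secreted proteins did not all go the way of Alb, Mup1 and Fgb. The coagulation factor gene F9 was higher on replicate 2 (18.6 and 279), and Afp and Ttr were detected on neither array. The share of any cell type behind these signals was not tested.

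Higher on replicate 2, the largest differences were in Scrt1, a neural repressor (39.2 and 698, difference -4.01), the coagulation factor gene F9 (18.6 and 279), Cd300ld3 (29.6 and 366), Gxylt2 (19.6 and 233) and the immediate early gene Fosb (21.2 and 243). The difference of Scrt1 rested on 1 probe. Its other probes gave 19.1 and 18.2, and 6.66 and 3.18, and neither was detected on both arrays. Dpf1, a neural chromatin subunit, was the only one of the 20 above a signal of 1000 on either array, at 837 and 9028 (-3.28). The rest were Hsd3b4, Tlr5, Pcp4l1, 1500015L24Rik, Ccdc87, Slc39a2, Bsnd, Trav3-3, Mgat4c, Krt5, Ghsr, Lrg1, Olfr229 and Olfr74, with differences from -3.12 to -2.48. Detected on replicate 2 only were, as the brightest 15, Olfr319, Ifi204, Olfr693, Rab27b, Olfr103, Olfr1222, Cyp2ab1, 4930518J21Rik, Lce1g, Ppargc1a, Hbb-y, Ghrh, Casp14, Olfr1289 and Try5, at 116 to 239. Apart from the olfactory receptors, with 31, the list with the most members over 2-fold higher on replicate 2 was that of differentiated somatic cells, with 4.

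The genes whose signal passed the 75th percentile on at least 1 array were taken separately. Of 7576 such genes 57 were over 2-fold higher on replicate 1 and 8 on replicate 2; a gene can enter through the array on which it is high, so these counts are a description. With more than 1 probe to judge by, 123 of the 781 genes higher on replicate 1 had another probe on, and in 19.5% of these every other probe passed 2-fold as well. Of the 293 genes higher on replicate 2, 44 had another probe on and 6.82% of these passed.

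**Figure D5:**
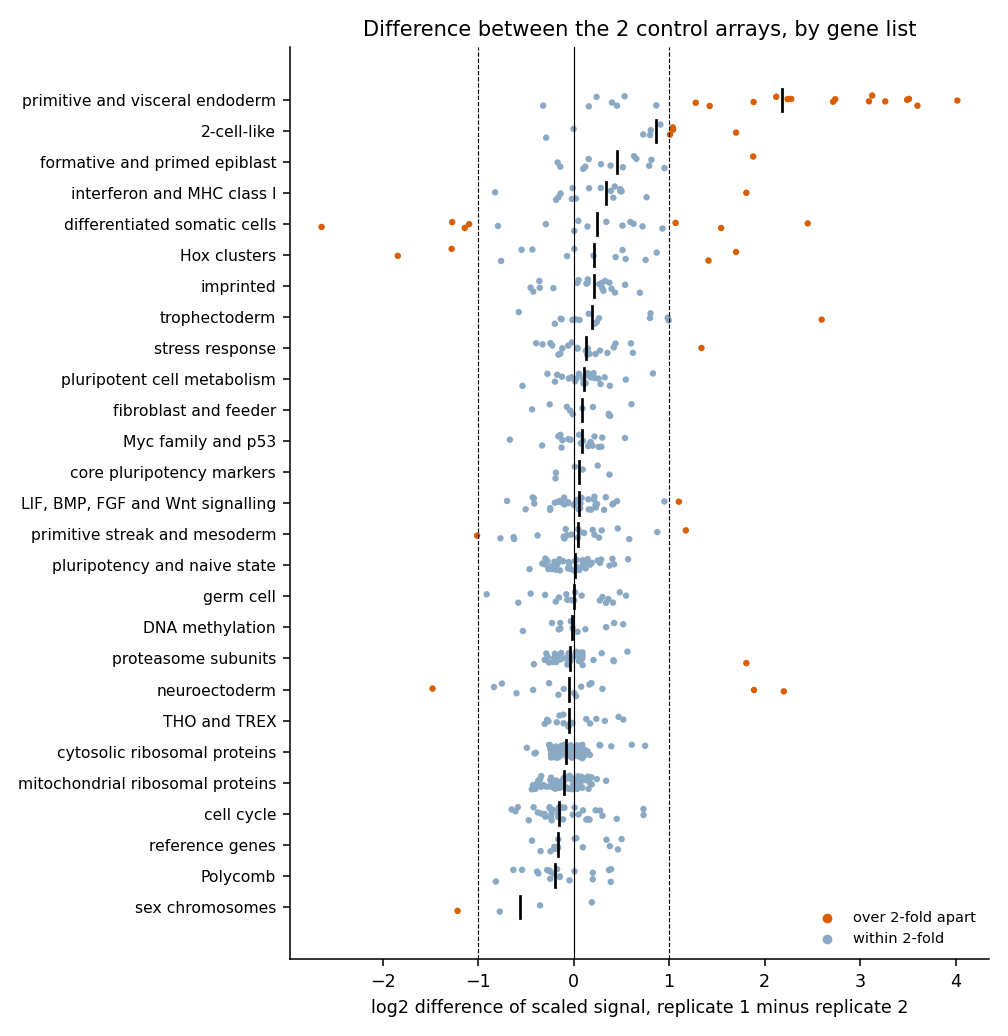
Difference of scaled log2 signal, replicate 1 minus replicate 2 (x axis), for each member of each gene list (y axis, in order of the list's median, black bar) whose brightest probe was well above background on both arrays; dashed lines mark 2-fold and orange points lie beyond them. The endoderm list has a median of 2.18 and the 2-cell-like list of 0.86, whereas the pluripotency list lies within the dashed lines.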

How the data were processed

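Gene expression was measured in 2 samples of NT siRNA on single-colour Agilent arrays. Per the file headers, the authors' deposited intensity is a processed signal made with Agilent Feature Extraction 9.5.3.1 (the submitters' processing notes name 11.0), background-subtracted and detrended within the array, with a surrogate value where it was not significant; flags for well above background (a multiplier of 13) come from the same files. A deposited series table holds log2 values whose Spearman correlation with the processed signal was 1; how it was made is not stated, and 4 of its columns, those of knockdown arrays, were not used. Ranks need no scaling; for differences, the log2 value of the 75th percentile was subtracted on each array, and folds are on that scale. Control and outlier spots were left out (75 and 92 spots), spots of a probe were averaged, a probe was on where at least 0.5 of its spots were flagged, and a gene took its brightest probe. Where 1 array was not above background, a fold is a lower bound, set against the dimmest flagged signal (11.1 and 12.0 before scaling) or against the unflagged signal if that was brighter.

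Names came from a RefSeq table on GRCm38.p6, whose coordinates are not given here: of 41174 probes, 22951 matched on the main accession, 131 on a further one, 6582 on symbol and 3073 on an older symbol; 8437 have no current gene name, and 4 genes were not measured on an array because of outlier spots. Sequences are those in the scanner files. The probe's chromosome matched the gene's in RefSeq for 99.8% of 19292 genes. The lists, members and rules were chosen with earlier results of these data known. Named genes are the core markers and siRNA targets, the 40 brightest, for each list its 5 brightest members and those on 1 array, on neither or over 2-fold apart, and the 20 largest differences and 15 brightest genes on 1 array each way; other members named beside them, and the probes of Grn and the histones, were chosen after their values were seen, and a few genes that the rule names are not reported here. The counting steps were tested on simulated data. R 4.3.3, limma 3.58.1 and pandas 2.3.3 were used. No test, and so no p-value, was computed.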

Additional observations from a re-analysis of the deposited data

How the results depend on the processing

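No paired analysis was possible because the results compare no groups and come from no test. The number of genes on neither array fell from 3104 to 1189 with the looser flag for a positive and significant signal, and rose to 8067 where a gene had to exceed the 95th percentile of olfactory receptors, a limit chosen after seeing the data; by that limit 935 genes were detected on 1 array and 10506 on both. Counts of genes over 2-fold higher on replicates 1 and 2 were 385 and 83 with normexp background correction, 1725 and 860 with probes detected on at least 1 array, and 2243 and 1093 with no filter, and the SD of the difference was then 1.04 and 1.01 in the latter settings. Scaling by the median gave 465 genes higher on replicate 2. Of the genes over 2-fold apart 82.3% were higher on replicate 1 with normexp, 57.3% in the quantile-normalized values and 57.3% in the deposited table. The endoderm list, recounted after seeing the data, had 13 to 16 members over 2-fold higher on replicate 1 under every alternative of background, scaling, filter, probes and outlier spots, and 1 member was over 2-fold higher on replicate 2 with no filter, where dim probes enter. Of the 40 brightest genes 23 were kept with the mean over a gene's probes. Esrrb then lay at percentile 77.1, the lowest value of the 6 core markers under any alternative. Leaving out 1 array left 15371 or 15660 genes on, 3851 or 4138 off, 643 or 663 list members on and 37 or 38 of the brightest 40. With the looser flag 31 Hox and 25 neuroectoderm genes were detected on both arrays. By the olfactory limit 14 endoderm, 8 trophectoderm, 8 fibroblast, 7 neuroectoderm, 6 mesoderm, 4 2-cell-like, 3 somatic, 3 Hox and 1 sex chromosome gene were detected on both arrays. Signals below that limit are where the background sets what can be read.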
